A study of Mus musculus with 9 samples.

Results

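Hmox1 and 9 other genes of haem breakdown and iron handling were followed in RNA sequencing of mouse leg muscle. The 10 genes were taken by symbol from a table of 55335 genes: the haem oxygenases Hmox1 and Hmox2, the biliverdin reductases Blvra and Blvrb, the ferritin chains Fth1 and Ftl1, the iron exporter Slc40a1, the transferrin receptor Tfrc, and Cd163 and Hp, which capture free haemoglobin. All 10 were found and all 10 passed the filter on low counts, which kept 18259 genes. Hmox1 was selected on its measured counts in these same libraries, where it stood higher after aspirin than in controls, so aspirin against control is described here without a test, and the other genes were added for their function.

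The 9 libraries came from 9 WT mice of the strain written c57b6l, 1 library per mouse, and all mice had a hindlimb model whose label names suspension and ischemia. The control group of 3 mice had no treatment, the aspirin group of 3 had aspirin, and the hydrogel group of 3 had aspirin plus peptide hydrogel. Uninjured muscle and hydrogel without aspirin were not analysed here, so a level is compared only among injured muscles, and p-values measure the spread between these mice. The labels give no sex, age, dose or time after injury.

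Haem oxygenases open the haem ring and release iron, carbon monoxide and biliverdin, which biliverdin reductases turn into bilirubin. Hmox1 is the inducible enzyme, raised by haem and oxidative stress and strongly expressed by macrophages that clear red cells and damaged muscle, whereas Hmox2 is constitutive. The iron released is stored in ferritin, a shell of heavy (Fth1) and light (Ftl1) chains, or leaves the cell through ferroportin (Slc40a1), and Tfrc brings transferrin-bound iron in. Muscle holds much haem of its own in myoglobin and mitochondria, and injury adds haemoglobin from leaked red cells.

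Total counts ran from 32197791 to 48170537 per library. Aspirin replicate 1 stood apart: its 10 muscle fibre markers summed to 18035 CPM (counts relative to library size, scaled by edgeR's TMM method), against 86045 to 275187 CPM in the other 8 libraries, so fibre RNA was present in every library but lowest there. Hydrogel replicate 3 lay at the opposite end of the first principal component. In bulk tissue, fewer cells of a type and less RNA per cell cannot be told apart. Scaling by library size alone moved the median log2 fold change of all genes by 0.23 for aspirin against control, -0.23 for hydrogel against control and -0.46 for hydrogel against aspirin, and the changes below are relative to TMM.

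Hmox1, the gene selected for its high counts after aspirin, stood there at 2.67 times the control level, whereas with hydrogel added it was near the control level. For the other 9 genes the fitted 95% interval of the log2 fold change covered 0 in both comparisons with hydrogel. In edgeR's quasi-likelihood test, adjusted over 18259 genes, 0 of the 10 genes passed an adjusted p of 0.05 in hydrogel against control and 0 of 10 in hydrogel against aspirin, where 0% of all genes passed in each. At an unadjusted p under 0.05 the counts were 0 and 1 of 10 (3.92% and 10.9% of all genes). DESeq2 called 0 and 1 of 10 (0.0997% and 0.887% of its tested genes). The 1 in each of these counts was Hmox1, selected on the same aspirin libraries, so nothing is read from it. For aspirin against control, the share of all genes called was 0% by edgeR, 6.48% at an unadjusted p under 0.05 and 0.57% by DESeq2, and nothing is read from it for these genes.

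**Figure D1:**
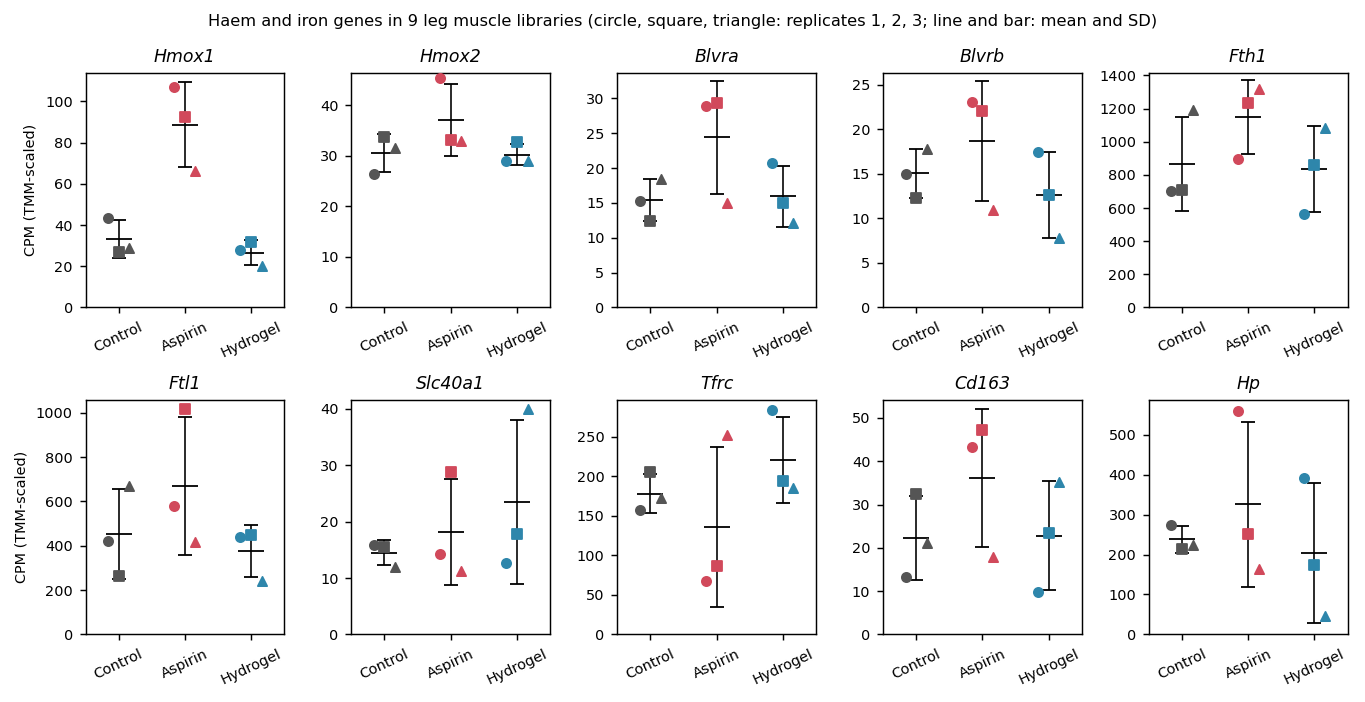
Level of each gene in CPM (y axis, from 0) in the 3 control, 3 aspirin and 3 hydrogel libraries; points are libraries, the line and bar the group mean and SD. Hmox1 lies between 66.4 and 107 CPM after aspirin and between 20.1 and 43.6 CPM in the other 6 libraries, whereas the groups of most other genes overlap.

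Hmox1 (ENSMUSG00000005413, chromosome 8, 75093621 to 75100589, plus strand of mm10) stood at 43.6, 26.9 and 29.1 CPM in control replicates 1 to 3. The aspirin libraries held 107, 92.6 and 66.4 CPM, and the hydrogel libraries 27.9, 31.8 and 20.1 CPM. Each aspirin library thus lay above every control and every hydrogel library, while hydrogel and control libraries overlapped. Group means were 33.2 ± 9.08 CPM in controls, 88.7 ± 20.6 CPM after aspirin and 26.6 ± 5.96 CPM with hydrogel (SD, n = 3).

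The log2 fold change of Hmox1 for aspirin against control was 1.42 ± 0.29 (SE), which the selection favours. It was 1.25 without Aspirin replicate 1, the library poorest in fibre RNA. For hydrogel against aspirin it was -1.74 ± 0.29 (95% interval -2.39 to -1.08), with an adjusted p of 0.453 by edgeR and 0.000129 by DESeq2; over all alternatives the adjusted p ran from 0.000129 to 0.986. This second comparison rests on the same 3 aspirin libraries for which the gene was picked, so it is no independent support. For hydrogel against control the log2 fold change was -0.32 ± 0.28 (95% interval -0.96 to 0.32, adjusted p = 0.987 by edgeR), and -0.072 without Control replicate 1. A control-level value with hydrogel is therefore known only to within that interval.

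**Figure D2:**
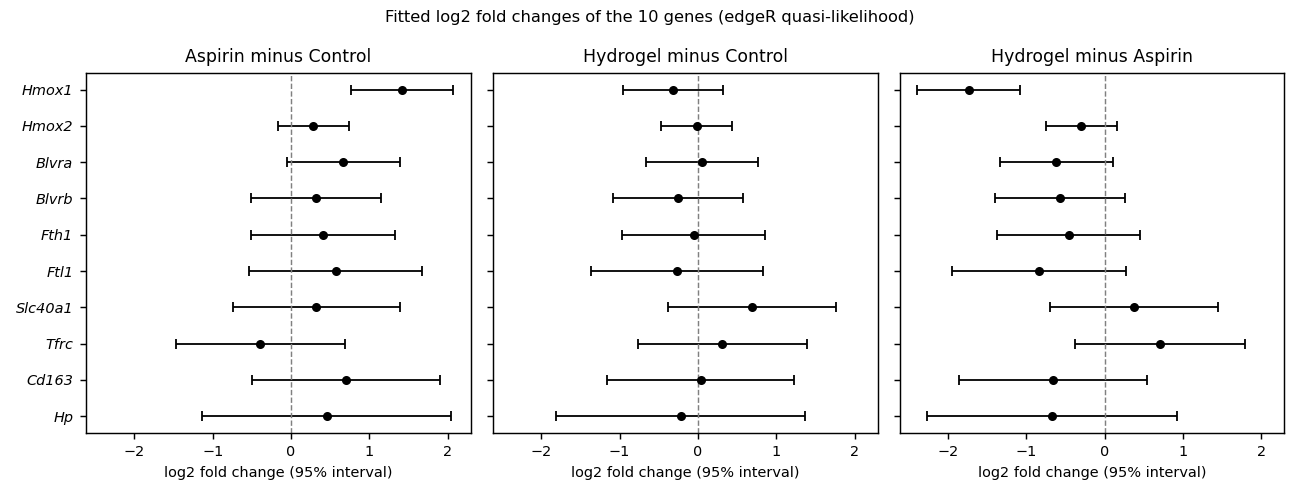
Fitted log2 fold changes (x axis) of the 10 genes with 95% intervals in the 3 comparisons; the dashed line marks no difference. Hmox1, selected on its counts after aspirin, lies at 1.42 for aspirin minus control and -1.74 for hydrogel minus aspirin, and all 10 intervals for hydrogel minus control cover 0.

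Macrophage markers were also highest in Aspirin replicates 1 and 2, but not in replicate 3. By edgeR 0 of 18 passed in any comparison, where 0% of all genes did. DESeq2 called 2 in hydrogel against aspirin, 0 in hydrogel against control and 1 in aspirin against control. Of all its tested genes it called 0.887%, 0.0997% and 0.57% in these comparisons. The mean log2 CPM of 18 macrophage markers was 7.10, 6.70 and 5.73 in aspirin replicates 1 to 3, 5.63, 4.92 and 6.01 in the controls, and 5.63, 5.79 and 4.30 in the hydrogel libraries. Their summed level was 1165 to 2746 CPM in controls, 1881 to 4726 CPM after aspirin and 785 to 2102 CPM with hydrogel, with 0 of 18 markers at 0 counts in any library. The median log2 fold change of the 18 was 1.09 for aspirin against control and -1.17 for hydrogel against aspirin, beside 0.046 and -0.053 over all genes. Set against the marker mean of its own library, Hmox1 lay at -0.36 to 0.33 (log2) after aspirin, -1.14 to -0.17 in controls and -0.83 to 0.036 with hydrogel, and these ranges overlap. The difference between hydrogel and aspirin was then -0.46, where Hmox1 alone had -1.74. No test is given for it, since Hmox1 was selected for its counts in these aspirin libraries. How far macrophage content accounts for the level of Hmox1 was not tested.

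Of 10 red cell markers tested, 10 were lower in hydrogel against aspirin (median log2 fold change -2.06) and 8 lower in aspirin against control (median -0.24), with 0 past edgeR's test. Over all alternatives the median ran from -2.65 to -1.55 for hydrogel against aspirin. For aspirin against control it ran from -0.76 to 0.64, so its direction was not stable. The summed level of 11 globin and other erythroid genes was 2719, 346 and 6199 CPM in controls, 3496, 4324 and 430 CPM after aspirin, and 399, 757 and 755 CPM with hydrogel. Control replicate 3, with the most red cell RNA of the 9 libraries, held 29.1 CPM of Hmox1, and Aspirin replicate 3, with little, held 66.4 CPM. Aspirin replicates 1 and 2, with 3496 and 4324 CPM of red cell RNA, held 107 and 92.6 CPM of Hmox1. The part of red cell content in the level of Hmox1 was not tested. Neutrophil markers summed to 496, 34.9 and 216 CPM in aspirin replicates 1 to 3, 27.5 to 182 CPM in controls and 11.7 to 42.7 CPM with hydrogel. Of 11 tested, 11 were lower in hydrogel against aspirin (median log2 fold change -3.28) and 11 in hydrogel against control (median -2.05). By edgeR 0 passed, while DESeq2 called 5 and 1, beside 0.887% and 0.0997% of all genes. In aspirin against control 10 were higher (median 1.65, and 0.25 without Aspirin replicate 1). The part of neutrophil content in the level of Hmox1 was not tested.

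**Figure D3:**
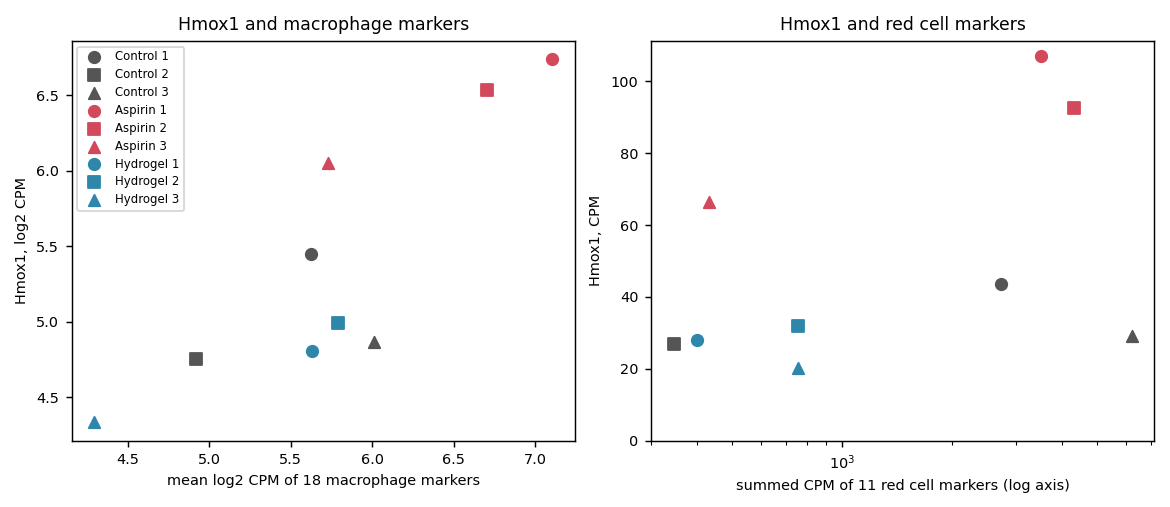
Left, Hmox1 (log2 CPM) against the mean log2 CPM of 18 macrophage markers; right, Hmox1 (CPM) against the summed CPM of 11 red cell markers on a log axis; each point is 1 of 9 libraries. The aspirin libraries are highest on the Hmox1 axis in both, and the part of either marker set in the level of Hmox1 was not tested.

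Known regulators of Hmox1 were read beside it. Nfe2l2, which encodes the activator NRF2, stood at 48.0, 39.3 and 62.2 CPM in controls, 82.9, 91.0 and 55.1 CPM after aspirin and 53.8, 53.1 and 44.1 CPM with hydrogel. Aspirin libraries lay above every hydrogel library, an order that 8.75% of all genes had, but overlapped the controls. The log2 fold change for hydrogel against aspirin was -0.60 ± 0.26 (adjusted p = 0.454 by edgeR). Bach1, the haem-sensing repressor, lay at 23.7 to 27.2 CPM in controls, 26.3 to 42.9 CPM after aspirin and 22.1 to 31.7 CPM with hydrogel, so its groups overlapped. These were named for their role, whatever their values.

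Spic, a factor of iron-recycling macrophages, stood at 10.7, 1.87 and 2.43 CPM after aspirin against 0.514 to 1.52 CPM in controls and 0.266 to 2.03 CPM with hydrogel. Aspirin replicate 1 was the high library, and the log2 fold change for hydrogel against aspirin was -2.51 ± 0.98 (adjusted p = 0.453 by edgeR). Hif1a, the hypoxia-stabilised factor, had -0.76 ± 0.31 in that comparison. Maff, a small partner protein of NRF2, was at -1.67 ± 0.50 and the clock repressor gene Nr1d1 at -1.53 ± 0.78 for hydrogel against control (both adjusted p = 0.987 by edgeR). Control replicate 2 was the highest library for both, at 10.9 CPM of Maff and 262 CPM of Nr1d1. Control replicates 1 and 3 held 2.99 and 6.17 CPM of Maff and 90.3 and 63.8 CPM of Nr1d1. Of the 9 regulators, 0 passed in either comparison with hydrogel.

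Across the 9 libraries, the genes whose log2 CPM ran closest to that of Hmox1, among 14572 genes averaging at least 1 CPM, were Kcnk13 (Pearson r = 0.98, Spearman rho = 0.95), Cfp (r = 0.97, rho = 0.95), Zc3hav1l (r = 0.96, rho = 0.90), Thg1l (r = 0.96, rho = 0.95) and Lox (r = 0.96, rho = 0.92). They are the best of many, share the libraries and their depth with Hmox1, and are given as a description. Leaving out Aspirin replicates 1 and 2, the farthest from the median for Hmox1, left r at 0.94, 0.96, 0.88, 0.90 and 0.92. Cfp encodes properdin, a complement protein of myeloid cells, and stood at 128, 73.0 and 60.3 CPM after aspirin and 18.8 to 40.5 CPM elsewhere. Lox, the collagen crosslinking enzyme, stood at 155, 82.0 and 73.6 CPM after aspirin and 20.8 to 42.6 CPM elsewhere. Both kept the aspirin libraries above the other 6, as Hmox1 did, an order that their choice by likeness to Hmox1 favours.

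Hmox2 (ENSMUSG00000004070, chromosome 16, 4726361 to 4766742, plus strand), the constitutive oxygenase, had the smallest SD relative to its mean of the 10 genes in each group. It stood at 26.5 to 33.8 CPM in controls, 45.4, 33.1 and 33.0 CPM after aspirin and 29.0 to 32.7 CPM with hydrogel. Aspirin replicate 1 was the high library, and control and aspirin libraries overlapped. Hydrogel libraries lay below every aspirin library by a narrow margin, but overlapped them with library size alone. The log2 fold change was 0.28 ± 0.20 for aspirin against control and -0.30 ± 0.20 for hydrogel against aspirin (adjusted p = 0.541 by edgeR), and 0.11 and -0.12 without Aspirin replicate 1. Hmox1 and Hmox2 were thus the 2 of 10 genes with every hydrogel library below every aspirin library. Of all genes, 8.75% were so ordered and 7.46% the other way. Nothing is read from this for Hmox1, which was selected on those aspirin libraries. For aspirin against control 1 of 10, Hmox1, was separated upward (5.54% of all genes upward and 5.44% downward), from which nothing is read, and for hydrogel against control 0 of 10 (6.85% upward and 6.3% downward of all genes). Exons of Hmox2 share 892 bases with Cdip1 on the opposite strand, which averaged 69.8 CPM, and whether counting used strand is not given in the sources used here, so its counts are uncertain to that extent.

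The ratio of the inducible to the constitutive oxygenase does not depend on the scaling of a library. In the deposited FPKM (fragments scaled by gene length and library size), Hmox1 was 2.98, 3.55 and 2.55 times Hmox2 in the aspirin libraries, 2.08, 1.01 and 1.17 times in controls and 1.22, 1.23 and 0.878 times with hydrogel. Both genes thus had similar FPKM in 5 of the 6 control and hydrogel libraries, whereas Hmox1 was at least 2.55 times Hmox2 in each aspirin library. No test is given for this ratio, since Hmox1 was selected for its counts in these aspirin libraries.

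**Figure D4:**
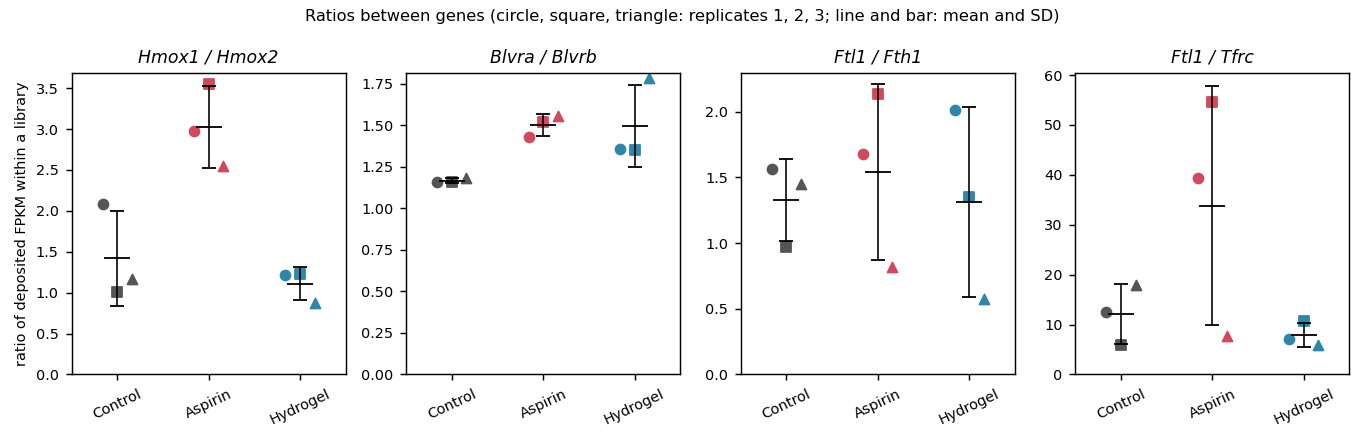
Ratios of deposited FPKM between genes within each library (y axes, from 0); points are libraries, the line and bar the group mean and SD. Hmox1 over Hmox2 is 2.55 to 3.55 after aspirin, Blvra over Blvrb is 1.16 to 1.18 in controls against 1.35 to 1.78 in both treated groups, and Ftl1 over Tfrc is low in Aspirin replicate 3 at 7.61.

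Blvra (ENSMUSG00000001999, chromosome 2, 127070665 to 127097084, plus strand) reduces the biliverdin that haem oxygenases make. It stood at 15.3, 12.4 and 18.5 CPM in controls, 28.9, 29.4 and 15.03 CPM after aspirin and 20.7, 14.96 and 12.1 CPM with hydrogel. Aspirin replicates 1 and 2 were high, and replicate 3 lay within the controls. On the log2 scale the fold change was 0.67 ± 0.32 for aspirin against control, -0.62 ± 0.32 for hydrogel against aspirin (adjusted p = 0.472 by edgeR) and 0.050 ± 0.32 for hydrogel against control (adjusted p = 0.994 by edgeR), a value that turned to -0.14 with library size alone.

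Blvrb (ENSMUSG00000040466, chromosome 7, 27447978 to 27466144, plus strand), a flavin reductase that acts on other biliverdin isomers and is abundant in red cells, showed the same split. Aspirin replicates 1 and 2 held 23.0 and 22.1 CPM and the third 10.97 CPM, against 12.3 to 17.8 CPM in controls and 7.78 to 17.4 CPM with hydrogel. The log2 fold change was 0.31 ± 0.37, -0.57 ± 0.37 and -0.25 ± 0.37 for aspirin against control, hydrogel against aspirin and hydrogel against control (adjusted p = 0.531 and 0.987 by edgeR for the hydrogel comparisons). Aspirin against control gave 0.13 without Aspirin replicate 1 and 0.60 without Aspirin replicate 3. Hydrogel against control gave -0.56 without Hydrogel replicate 1 and -0.022 without Hydrogel replicate 3, and hydrogel against aspirin -0.87 and -0.35.

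Ferritin chains had the highest group means of the 10 genes, in FPKM as well as in CPM. Iron controls ferritin chiefly after transcription: iron regulatory proteins bind a stem-loop, the iron-responsive element, in the leader of ferritin and ferroportin mRNAs and hold back their translation when iron is scarce, while the same proteins bound behind the coding part of Tfrc mRNA keep it stable. mRNA levels therefore report on Tfrc more directly than on ferritin protein. The elements are shown because they set these 4 genes apart from the other 6. They were sought in GENCODE transcripts as the loop CAGTGN, its last base not G, between 5 paired bases with an unpaired c before the stem. Fth1, Ftl1 and Slc40a1 each held 1 in the 5′ UTR and Tfrc 4 in the 3′ UTR, none was found in the other 6 genes, and 1.01% of 21901 protein-coding genes held 1 or more. Capitals mark the loop.
Fth1, chr19:9982732-9982761, plus strand: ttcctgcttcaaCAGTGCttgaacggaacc
Ftl1, chr7:45459778-45459807, minus strand: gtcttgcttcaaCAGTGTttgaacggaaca
Slc40a1, chr1:45925464-45925493, minus strand: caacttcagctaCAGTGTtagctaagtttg
Tfrc, chr16:32631219-32631248, plus strand: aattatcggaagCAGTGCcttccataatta
Tfrc, chr16:32631598-32631627, plus strand: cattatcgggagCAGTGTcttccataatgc
Tfrc, chr16:32631663-32631692, plus strand: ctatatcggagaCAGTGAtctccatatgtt
Tfrc, chr16:32631710-32631739, plus strand: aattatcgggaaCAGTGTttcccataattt

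Ftl1 (ENSMUSG00000050708, chromosome 7, 45457944 to 45459884, minus strand), the light chain that helps iron form a mineral core, stood at 422, 266 and 668 CPM in controls. It stood at 578, 1018 and 415 CPM in the aspirin libraries and 438, 448 and 240 CPM with hydrogel. Aspirin replicate 2 was the highest and replicate 3 lay among the controls, so the groups overlapped. On the log2 scale the fold change was 0.57 ± 0.49 for aspirin against control, and 0.13 without Aspirin replicate 2. It was -0.84 ± 0.49 for hydrogel against aspirin (adjusted p = 0.502 by edgeR), and -0.39 without that library. For hydrogel against control it was -0.27 ± 0.49 (adjusted p = 0.987 by edgeR), and 0.11 without Control replicate 3.

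Fth1 (ENSMUSG00000024661, chromosome 19, 9980598 to 9985098, plus strand), the heavy chain with the ferroxidase site, stood at 700, 707 and 1193 CPM in controls, 893, 1235 and 1316 CPM after aspirin and 562, 858 and 1083 CPM with hydrogel. Its highest aspirin library was replicate 3, where Ftl1 was lowest. The log2 fold change was 0.41 ± 0.40 for aspirin against control, -0.46 ± 0.40 for hydrogel against aspirin (adjusted p = 0.619 by edgeR) and -0.055 ± 0.40 for hydrogel against control (adjusted p = 0.995 by edgeR), and the last turned to 0.25 without Control replicate 3. With library size alone, every aspirin library exceeded every control and hydrogel library for Fth1.

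The 2 chains did not keep a fixed proportion. Ftl1 was 1.56, 0.973 and 1.45 times Fth1 in FPKM in controls, 1.68, 2.14 and 0.817 times after aspirin and 2.02, 1.35 and 0.573 times with hydrogel, so the spread within a group exceeded any difference between groups. The 2 libraries with the lowest ratio, Hydrogel replicate 3 and Aspirin replicate 3, also had the highest summed fibre markers, 275187 and 227703 CPM, and the part of that in the ratio was not tested. Ferritin counts are uncertain, since ferritin has many near-identical pseudogenes. 15 other rows named as ferritin held 0.689% to 2.93% of ferritin counts. The small RNA gene Gm22133 lies within Ftl1 on the same strand for 109 bases and carried 18.9% to 30.2% as many counts as Ftl1, and adding them moved the log2 ratio of group means from 0.57 to 0.58 for aspirin against control and from -0.84 to -0.87 for hydrogel against aspirin.

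Slc40a1 (ENSMUSG00000025993, chromosome 1, 45908068 to 45926523, minus strand), the only known cellular iron exporter, had the lowest group means of the 10 per length and ranged from 0.991 to 3.15 FPKM. It stood at 15.9, 15.6 and 12.01 CPM in controls, 14.2, 28.9 and 11.3 CPM after aspirin and 12.7, 17.8 and 39.98 CPM with hydrogel. A single library was high in each treated group, Aspirin replicate 2 and Hydrogel replicate 3, and the other 7 lay between 11.3 and 17.8 CPM. On the log2 scale the fold change for hydrogel against control was 0.69 ± 0.47 (adjusted p = 0.987 by edgeR), but 0.052 without Hydrogel replicate 3. For aspirin against control it was 0.32 ± 0.47, and -0.19 without Aspirin replicate 2. For hydrogel against aspirin it was 0.37 ± 0.47 (adjusted p = 0.729 by edgeR), but -0.18 with library size alone and -0.27 without Hydrogel replicate 3.

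Tfrc (ENSMUSG00000022797, chromosome 16, 32608920 to 32632794, plus strand), which takes up transferrin-bound iron, split the aspirin libraries. It stood at 157, 205 and 172 CPM in controls, 68.0, 86.4 and 252 CPM after aspirin and 283, 194 and 185 CPM with hydrogel. Aspirin replicates 1 and 2 were the lowest of all 9 libraries, and Aspirin replicate 3 was above every control. The log2 fold change was -0.39 ± 0.48 for aspirin against control, with -1.19 without Aspirin replicate 3 and -0.082 without Aspirin replicate 1. It was 0.71 ± 0.48 for hydrogel against aspirin (adjusted p = 0.543 by edgeR), with 1.496 without Aspirin replicate 3 and 0.39 without Aspirin replicate 1. For hydrogel against control it was 0.31 ± 0.48 (adjusted p = 0.987 by edgeR), with 0.093 without Hydrogel replicate 1.

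Storage and uptake transcripts were furthest apart in Aspirin replicates 1 and 2. Ftl1 was 39.3 and 54.5 times Tfrc in FPKM there, 7.61 times in Aspirin replicate 3, 5.98 to 17.97 times in controls and 5.99 to 10.7 times with hydrogel. Fth1 was 23.5 and 25.5 times Tfrc in those 2 libraries, against 3.54 to 12.4 times in the other 7. The groups overlapped for both ratios, and hydrogel against aspirin gave p = 0.2 for each in the exact permutation test (two-sided). The same 2 libraries had the highest summed macrophage markers, 4726 and 3999 CPM, and the part of that in the ratios was not tested.

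Cd163 (ENSMUSG00000008845, chromosome 6, 124304656 to 124330527, plus strand), the receptor by which macrophages take up haptoglobin bound to haemoglobin, stood at 13.2, 32.5 and 21.1 CPM in controls. After aspirin it stood at 43.3, 47.2 and 17.98 CPM, and with hydrogel at 9.92, 23.3 and 35.3 CPM. Aspirin replicates 1 and 2 were the 2 highest of the 9 libraries, and the groups overlapped. On the log2 scale the fold change was 0.70 ± 0.53 for aspirin against control (0.43 without Control replicate 1 and 1.08 without Control replicate 2), and -0.66 ± 0.53 for hydrogel against aspirin (adjusted p = 0.593 by edgeR; -1.15 without Hydrogel replicate 3 and -0.30 without Hydrogel replicate 1). For hydrogel against control it was 0.036 ± 0.53 (adjusted p = 0.998 by edgeR), turning to -0.22 with library size alone and to -0.43 without Hydrogel replicate 3. Hydrogel replicate 3 had the lowest macrophage marker mean of all libraries, yet Cd163 lay 0.85 above that mean (log2) there. In the other 8 libraries it lay from 2.32 below to 0.10 above the mean.

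Hp (ENSMUSG00000031722, chromosome 8, 109575128 to 109579172, minus strand) encodes haptoglobin, the plasma protein that binds free haemoglobin, made mainly by liver and also by fat and myeloid cells. It stood at 275, 215 and 223 CPM in controls, 560, 251 and 165 CPM after aspirin and 392, 175 and 45.1 CPM with hydrogel. Controls lay close together, while the treated groups spanned the whole range. The log2 fold change was 0.45 ± 0.70 for aspirin against control (-0.20 without Aspirin replicate 1). It was -0.67 ± 0.71 for hydrogel against aspirin (adjusted p = 0.679 by edgeR), -1.56 without Hydrogel replicate 1 and -0.030 without Aspirin replicate 1. For hydrogel against control it was -0.22 ± 0.70 (adjusted p = 0.989 by edgeR), -1.11 without Hydrogel replicate 1 and 0.23 without Hydrogel replicate 3. Liver markers were near 0, with Alb at 0.200 to 3.57 CPM and 6 markers summing to 0.267 to 3.70 CPM. Adipocyte markers summed to 2823 to 4514 CPM in controls, 722 to 2094 CPM after aspirin and 715 to 3565 CPM with hydrogel, where the 3 hydrogel libraries took the same order as for Hp. The aspirin libraries did not, with 1255, 2094 and 722 CPM of these markers in replicates 1 to 3. Nor did the controls, with 2823, 4514 and 2959 CPM in replicates 1 to 3, the reverse of their order for Hp. The part of adipocyte content in the level of Hp was not tested.

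Per length, the order of the group means in controls was Ftl1 at 308, Fth1 at 226, Hp at 139, Tfrc at 26.3, Hmox1 at 18.1, Hmox2 at 12.6, Blvra at 5.81, Blvrb at 4.98, Cd163 at 3.63 and Slc40a1 at 1.504 FPKM. In controls the library ranges of neighbours overlapped except for Hp with Tfrc, Hmox2 with Blvra and Cd163 with Slc40a1. The order was the same with hydrogel, where Tfrc with Hmox1 and Hmox2 with Blvra did not overlap. After aspirin Hmox1, at 56.9 ± 29.4 FPKM (SD, n = 3), stood before Tfrc, at 20.7 ± 10.3 FPKM, and the other 8 genes kept their places. All neighbours overlapped in range there, although Hmox1, at 30.3 to 88.5 FPKM, lay apart from Hmox2, at 11.9 to 29.7 FPKM.

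The wider pathway was read from 6 lists of 70 symbols, of which 68 were in the table and 65 tested. By edgeR 0 of 65 passed in hydrogel against control and 0 of 65 in hydrogel against aspirin; 3 and 10 had an unadjusted p under 0.05, where 3.92% and 10.9% of all genes did. DESeq2 called 0 and 2, beside 0.0997% and 0.887% of all genes. The median log2 fold change of the 65 was 0.0033 and -0.059, beside -0.030 and -0.053 over all genes, and -0.057 beside 0.046 for aspirin against control. As a whole these genes thus lay near the middle of all genes.

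The 2 that DESeq2 called were Lcn2 and Bmp6. Bmp6, the endothelial signal that tells the liver of iron load, stood at 2.10, 4.66 and 3.03 CPM after aspirin, 5.54, 7.93 and 6.69 CPM in controls and 7.14, 8.07 and 9.01 CPM with hydrogel. Aspirin libraries lay below all others. Among all genes, 7.46% had every aspirin library below every hydrogel library, and 5.44% had every aspirin library below every control. The log2 fold change for hydrogel against aspirin was 1.31 ± 0.33 (adjusted p = 0.453 by edgeR, 0.0266 by DESeq2). Of 10 endothelial markers 9 were higher in hydrogel against aspirin, with 0 past edgeR's or DESeq2's threshold, and they summed to 242 to 336 CPM after aspirin, 419 to 743 CPM in controls and 352 to 531 CPM with hydrogel, and their part in Bmp6 was not tested. Lcn2, a neutrophil protein that binds bacterial iron carriers, stood at 45.0, 1.99 and 15.8 CPM after aspirin and 0.434 to 6.02 CPM elsewhere, with a log2 fold change of -3.40 ± 1.11 for hydrogel against aspirin (adjusted p = 0.453 by edgeR, 0.0439 by DESeq2). Ltf, which encodes lactoferrin of neutrophil granules, had -3.17 ± 1.72 in that comparison, and both genes are also on the neutrophil list.

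Of 9 haem synthesis genes, 5 were higher and 4 lower in hydrogel against aspirin (median 0.17), none past the test. Fech, which inserts iron into haem, stood at 35.8, 72.1 and 103 CPM after aspirin and 104, 129 and 173 CPM with hydrogel. These groups did not overlap, by a narrow margin. Fech was the 1 of 9 genes so separated, beside 7.46% of all genes in that direction. Its log2 fold change for hydrogel against aspirin was 0.95 ± 0.38 (adjusted p = 0.453 by edgeR). Alas2, the erythroid first enzyme, had -1.92 ± 1.03 there and -2.20 ± 1.04 for hydrogel against control, where Cpox had 0.73 ± 0.36. Alas2 is also a red cell marker, and its 2 highest control libraries were the 2 with most red cell RNA.

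Of 12 genes of mitochondrial iron, 10 were higher and 2 lower in hydrogel against aspirin (median 0.25), with 0 past the test. Muscle fibre markers were higher there in 10 of 10 (median 0.69, 0 past the test), and their part in the list's values was not tested. Nfs1, the sulphur donor of iron-sulphur clusters, had 0.83 ± 0.40 (adjusted p = 0.462 by edgeR) and was lowest in the fibre-poor Aspirin replicate 1, at 27.7 CPM. Medians for hydrogel against aspirin turned negative under at least 1 alternative, to as low as -0.16 for mitochondrial iron, -0.23 for haem synthesis and -0.14 for storage, export and regulation. That of the muscle fibre markers did so too, and ran from -0.084 to 1.47. Of 10 haem transport genes 8 were lower in hydrogel against aspirin (median -0.14), among them Pgrmc1, a haem-binding membrane protein, at -0.77 ± 0.36, while the porphyrin transporter gene Abcb6 had 0.51 ± 0.36. Of 13 iron uptake genes 11 were lower in hydrogel against aspirin (median -0.65) and 10 in hydrogel against control (median -0.44), among the latter the metal importer gene Slc39a8 at -1.39 ± 0.62 (adjusted p = 0.987 by edgeR). Of 12 tested genes of iron storage, export and regulation 9 were higher in hydrogel against aspirin (median 0.27), although the copper ferroxidase gene Cp had -0.84 ± 0.42; Cp had -0.56 ± 0.42 and its relative Heph -0.69 ± 0.46 for hydrogel against control. For aspirin against control, the naming rule, which takes 2 genes from each list, also gave Alas1 at -0.67 ± 0.41, Slc46a1 at -0.51 ± 0.35, Abcb8 at -0.59 ± 0.37 and Flvcr1 at 0.56 ± 0.69.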

How the data were processed

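Libraries of leg muscle RNA from 9 mice were made with a SMARTER kit for mRNA, according to the labels. Raw counts per gene and FPKM for the same genes and libraries are the authors' deposited values. Their build is mm10 by the submitters' processing notes, and no aligner, counter, annotation or strand setting is given in the sources used here. Groups came from the sample titles. Counts of all 9 libraries were fitted at once with edgeR 4.0.16 (quasi-likelihood, robust, TMM scaling, filterByExpr with a minimum count of 10 and total of 15), and p-values were adjusted by Benjamini-Hochberg over all tested genes, with a threshold of 0.05. Standard errors and 95% intervals were derived from the quasi-likelihood F. DESeq2 1.42.0, limma 3.58.1 (voom, and log2 FPKM plus 0.1 or 1), other scalings and filters, and leaving out libraries were alternatives. Ratios used the deposited FPKM. Coordinates and transcripts are from GENCODE vM21 on GRCm38 (mm10). The tests were checked on simulated counts.

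The 10 genes and the lists were chosen with earlier results of these data known. Named genes are the 10, the 2 of largest log2 fold change in each pathway list and comparison averaging at least 1 CPM, and the 5 genes most like Hmox1; Nfe2l2, Bach1 and Alb were added for their role. Some genes this rule names are not reported here. Flvcr1 and Flvcr2 were matched by gene ID. Deviations from group means correlated between same-numbered aspirin and control libraries at 0.615, 0.133 and 0.264, so the block by number was also fitted for that comparison; no mouse, litter or day links the numbers.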

Additional observations from a re-analysis of the deposited data

How the results depend on the processing

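Over all genes, DESeq2 called 101 for aspirin against control, 18 for hydrogel against control and 157 for hydrogel against aspirin, where edgeR called 0 in each, with 1183, 716 and 1996 at an unadjusted p under 0.05. limma-voom called 0 in each. Leaving out single libraries gave 0 to 2 genes for hydrogel against aspirin (2 without Aspirin replicate 3), and the replicate block over 9 libraries gave 1. The replicate block changed no call among the 10 genes. For the hydrogel comparisons same-numbered libraries correlated at -0.441 to 0.482, so the numbers were not taken to pair them. Among values of the 10 genes, 20 changed direction and 280 did not when libraries were left out, and 12 did against 316 that kept direction and call under other settings. The other 2 are Hmox1 by DESeq2, for aspirin against control and for hydrogel against aspirin. Each rests on the aspirin counts that selected the gene, so neither is a test.

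For aspirin against control, leaving out libraries gave -0.20 to 0.80 for Hp and -0.19 to 0.57 for Slc40a1; without both Aspirin replicate 1 and Hydrogel replicate 3, a setting added after the data were seen, Hp was at -0.19. For hydrogel against control, leaving out single libraries gave -0.11 to 0.045 for Hmox2, -0.31 to 0.25 for Fth1 and -0.56 to 0.11 for Ftl1. It gave -0.18 to 0.19 for Blvra (0.21 without both libraries) and -0.43 to 0.40 for Cd163. Hp ran from -1.11 to 0.23, and up to 0.25 over all alternatives. Blvra turned to -0.14 with library size alone, -0.0032 with the replicate block and -0.19 and -0.15 from FPKM with pseudocounts of 0.1 and 1. Cd163 turned to -0.073 by limma-voom, -0.22 with library size alone, -0.061 with the replicate block within the 2 groups (added after the data were seen), and -0.26 and -0.19 from FPKM. For hydrogel against aspirin, leaving out single libraries gave -0.27 to 0.89 for Slc40a1 and -1.56 to -0.030 for Hp. Over all alternatives Slc40a1 went down to -0.40 and Hp up to 0.45. Slc40a1 turned to -0.18 with library size alone and to -0.091 and -0.079 from FPKM. Hmox1 kept its direction under every alternative run, at 1.25 to 1.67 for aspirin against control and -2.23 to -1.41 for hydrogel against aspirin. Each alternative reused the aspirin libraries on which Hmox1 was selected, which favours that direction, so nothing is read from it. With 3 mice a group, no p from permuting libraries can fall below 0.1.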

Other observations

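The 2 biliverdin reductases kept a nearly fixed ratio in controls, where Blvra was 1.16, 1.16 and 1.18 times Blvrb in FPKM. The ratio was 1.43, 1.52 and 1.56 after aspirin and 1.36, 1.35 and 1.78 with hydrogel, so each of the 6 treated libraries lay above each control, in contrast to the level of either gene, whose groups overlapped. The exact permutation test gave p = 0.1 (two-sided) for hydrogel against control, the smallest it can give. The ratio was looked at after the levels had been seen. It was 1 of several ratios run, and the others gave p of 0.4 or more in that permutation test for hydrogel against control. Among single genes, 6.85% were separated upward and 6.3% downward in that comparison. No such share is given here for ratios of other gene pairs.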
